A study of Canis lupus familiaris with 13 samples.

Results

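The transcripts described here are 10 markers of smooth muscle cells and pericytes: ACTA2, TAGLN, CNN1, MYH11, MYLK, DES, CALD1, SMTN, RGS5 and CSPG4. They were taken by gene symbol from the annotation of a canine expression array. All 10 genes had a probe set, a group of short probes that reads a transcript, and together they had 25 of the 42924 probe sets tested and stood among 15115 named genes. A further probe set is annotated to both ACTA1 and ACTA2 and was left out. The samples were primary soft tissue sarcomas of dogs, all untreated, with 5 tumours in the metastatic group (MET1 to MET5) and 8 in the non-metastatic group (NM1 to NM8), whose dogs had stayed free of metastasis for 1 year or longer. The labels give no breed, histological type, grade or body site, and they do not say whether each tumour came from a different dog. A p-value below therefore measures the spread between these samples. The question is how the contractile markers vary between the tumours, and whether they differ between the groups.

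Contraction of smooth muscle starts when myosin light chain kinase (the product of MYLK) phosphorylates the light chain of smooth muscle myosin, whose heavy chain MYH11 encodes, so that it pulls on actin filaments made partly of the ACTA2 product. Calponin (CNN1), caldesmon (CALD1), transgelin (TAGLN) and smoothelin (SMTN) bind those filaments, and desmin (DES) forms the intermediate filaments that hold them. Pericytes, the mural cells of small vessels, carry the regulator of G-protein signalling RGS5 and the proteoglycan NG2 (CSPG4). In tumours these transcripts can come from vessel walls, from myofibroblasts of the stroma or from tumour cells with a smooth muscle phenotype, and MYH11 is the most restricted of them to differentiated smooth muscle.

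All values are log2 intensities as the authors deposited them, and a difference of 1 is a doubling of intensity. A gene with several probe sets is given at the set with the highest mean over the 13 tumours. The arrays had medians from 6.71 to 6.94. The RNA spike-in controls split the tumours into 3 classes: MET1 to MET5 and NM5 to NM8 carried them, NM1, NM3 and NM4 showed none, and NM2 carried them with a 3′ minus 5′ difference of 3.64, against 0.91 or less in the other tumours. The same difference for ACTB, a measure of how far the signal leans to the 3′ end, was 3.14 in NM2, 0.39 to 0.88 in NM1, NM3 and NM4, 1.40 to 2.87 in the metastatic tumours and 1.23 to 2.24 in NM5 to NM8. Group differences are therefore also given within the 9 tumours of the first class, called spike-in class A; NM1, NM3 and NM4 are class B and NM2 is class C. The 72 spike-in values of NM1, NM3 and NM4, where nothing was there to bind, ran from 2.63 to 7.16, and a transcript at or below 7.16 was not told apart from that range. Array intensities of different genes are not comparable, so each gene is set only against itself.

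No tumour had all 10 markers high. NM2, MET5 and MET3 stood out, each through a different set of genes. NM2 was at least 1 above the median of the 13 tumours for ACTA2, MYH11 and MYLK, and had the highest MYH11, SMTN and CSPG4. MET5 was at least 1 above for ACTA2, MYH11, MYLK and DES, and was the only tumour that far above for DES at its first set. MET3 was at least 1 above for ACTA2 and MYLK, and had the highest ACTA2 and TAGLN. MET4 was at least 1 above for MYLK alone, and NM6 for RGS5 alone. NM3 was at least 1 below for ACTA2, TAGLN and MYLK, MET1 for TAGLN, MYH11 and RGS5, MET2 for TAGLN and CALD1, and NM1 for ACTA2 and MYLK. At the chosen sets, NM4, NM5, NM7 and NM8 had no marker that far from its median in either direction. Over all 25 probe sets, NM4 had 1 set at least 1 above and 1 at least 1 below. NM5 had 1 that far below, NM7 had 2 that far above, and NM8 had 0. MET4 was also that far above at the fourth CALD1 set (9.02, median 8.01). Of the 10 markers, 8 lay above their own median in NM2 and NM6, 7 in MET3 and MET5, and 1 in MET1.

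**Figure D1:**
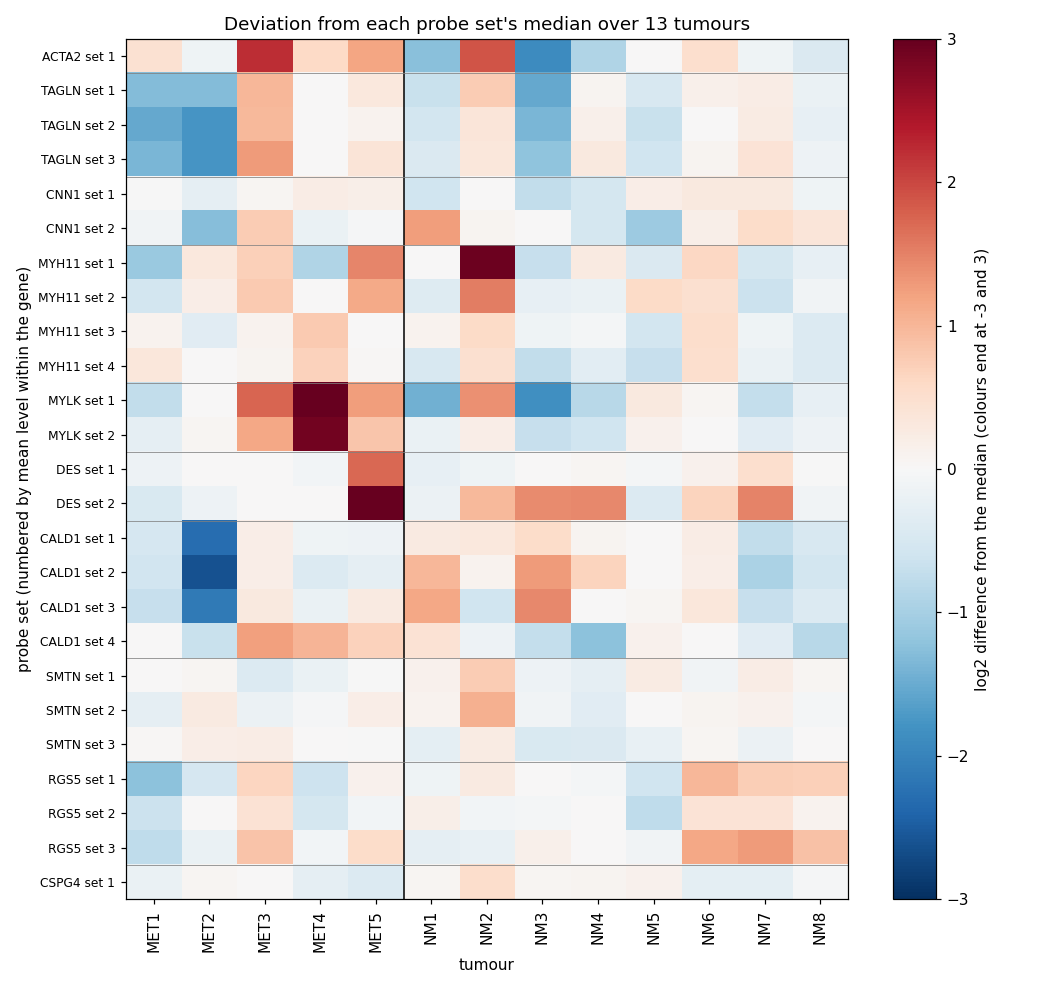
Difference of each tumour (columns) from the median of the 13 tumours for each of the 25 probe sets of the contractile markers (rows, numbered by mean level within a gene), in log2 units; colours stop at 3 in either direction. The cells more than 2 from the median are ACTA2 in MET3, the first MYH11 set in NM2, both MYLK sets in MET4, the second DES set in MET5 and, below it, the first 3 CALD1 sets in MET2.

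ACTA2 encodes smooth muscle alpha-actin, the marker of smooth muscle and of myofibroblasts. It was 11.28, 10.69, 13.04, 11.43 and 12.02 in MET1 to MET5, and 9.57, 12.71, 8.95, 9.93, 10.83, 11.34, 10.71 and 10.40 in NM1 to NM8. MET3 and NM2 were highest, the 3 tumours without spike-ins were lowest, and the groups overlapped. The mean was 11.69 ± 0.89 (SD, n = 5) in the metastatic group and 10.56 ± 1.15 (SD, n = 8) in the non-metastatic group. The difference was 1.14 ± 0.54 (SE), with a 95% interval from −0.02 to 2.30, and did not pass the threshold (limma, adjusted p = 0.218). Within spike-in class A it was 0.87 (limma, adjusted p = 0.29). In bulk tumour RNA, fewer contractile cells and less transcript in each cell cannot be told apart, for this and the other markers.

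MYLK had the largest range of the 10 genes, and its standard deviation was higher than that of 98.81% of all probe sets. Its values were 6.61, 7.34, 9.09, 11.12 and 8.59 in MET1 to MET5, and 5.91, 8.71, 5.49, 6.50, 7.63, 7.40, 6.62 and 7.10 in NM1 to NM8. MET4 stood alone at the top, at 3.78 above the median, with MET3, NM2 and MET5 next. The group means were 8.55 ± 1.74 (SD, n = 5) and 6.92 ± 1.02 (SD, n = 8). The difference of 1.63 ± 0.67 (SE), with a 95% interval from 0.19 to 3.07, had an unadjusted limma p of 0.0292 and did not pass after adjustment (adjusted p = 0.166). Without MET4 the difference was 0.99 (limma, adjusted p = 0.326), and within class A it was 1.36 (limma, adjusted p = 0.37). The other MYLK probe set followed the same order in large part (r = 0.94 over the 13 tumours), with 8.61 in MET4 and 6.87 or less elsewhere. Only MET4 was above 7.16 at that set, so its difference of 1.14 ± 0.40 (SE; limma, adjusted p = 0.113) is one between signals that, MET4 aside, were not told apart from the no-target range. At the first set, MET1, NM1, NM3, NM4, NM7 and NM8 were at or below 7.16, as was the non-metastatic mean.

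MYH11, the smooth muscle myosin heavy chain, was 6.23, 7.66, 8.07, 6.44 and 8.81 in MET1 to MET5, and 7.35, 10.29, 6.66, 7.61, 6.92, 7.96, 6.82 and 7.10 in NM1 to NM8. NM2 was highest, followed by MET5 and MET3, and the remaining 10 tumours lay between 6.23 and 7.96. Tumours at or below 7.16 here were MET1, MET4, NM3, NM5, NM7 and NM8, so MYH11 was not told apart from the no-target range in either group's lower tumours. The group difference was −0.15 ± 0.58 (SE), with a 95% interval from −1.39 to 1.10 (limma, adjusted p = 0.892). It changed sign without NM2, to 0.24 (limma, adjusted p = 0.71), and within class A, also to 0.24 (limma, adjusted p = 0.836). The second MYH11 probe set was again highest in NM2, at 7.83, with MET5 at 7.42 and MET3 at 7.07. The other 2 MYH11 sets were below 7.16 in every tumour.

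**Figure D2:**
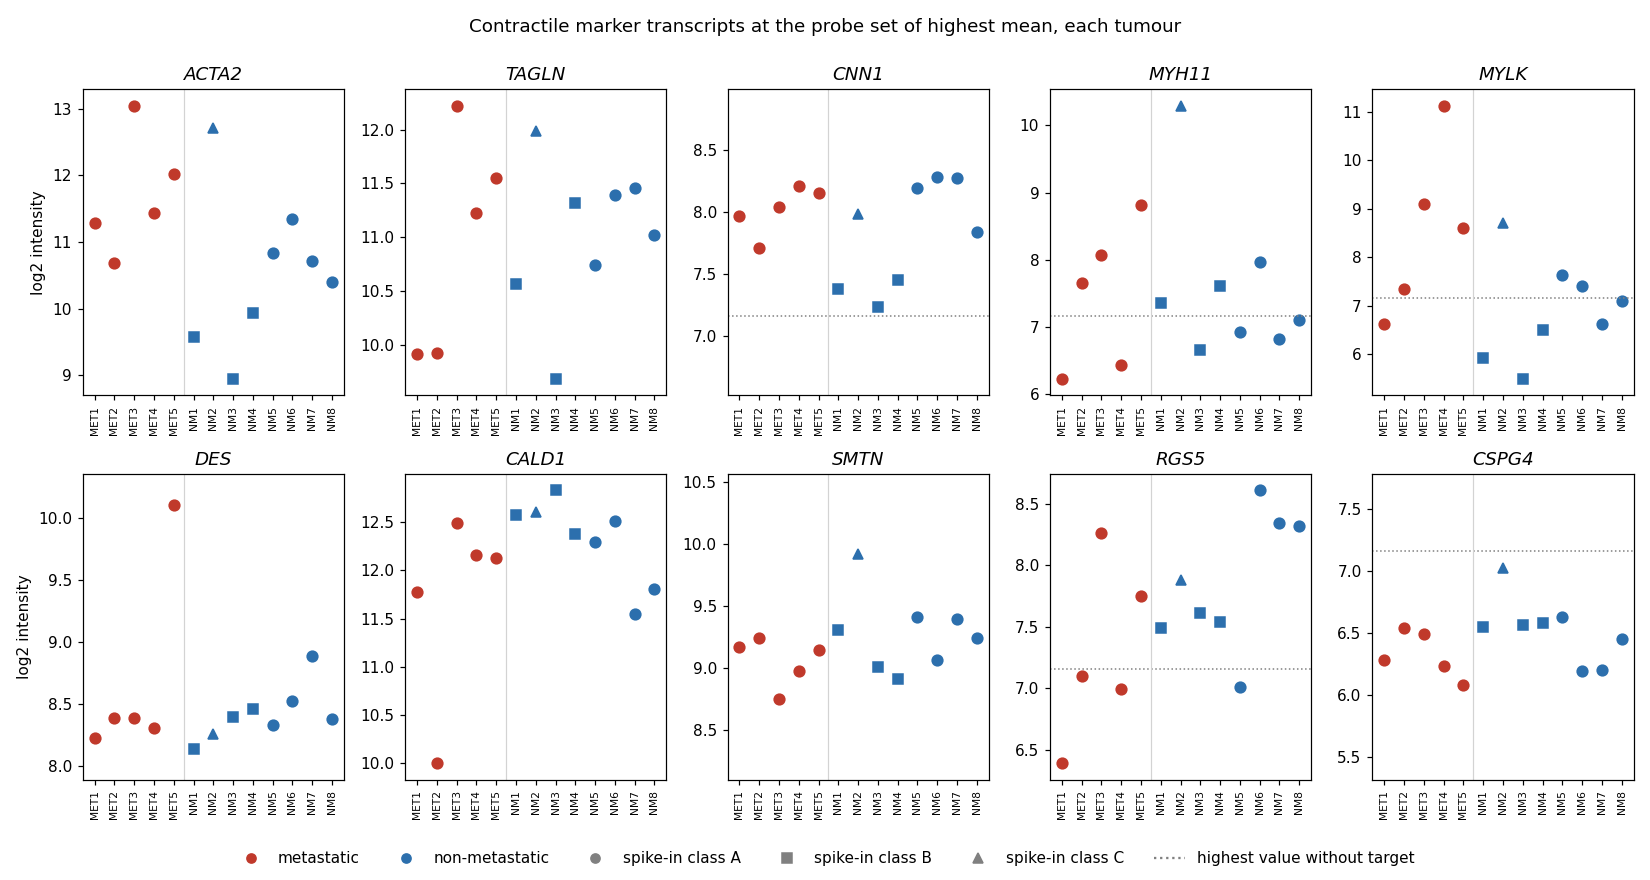
Log2 intensity of each contractile marker (panels) in every tumour, metastatic and non-metastatic, with spike-in classes marked; each panel has its own scale, and the dotted line is 7.16, the highest spike-in value where no target was present. The groups overlap in all 10 panels, and the highest value is MET3 for ACTA2 and TAGLN, MET4 for MYLK, MET5 for DES and NM2 for MYH11.

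The actin-binding markers had smaller standard deviations over the tumours than ACTA2, MYLK and MYH11. TAGLN, an early marker of the smooth muscle lineage, was 9.92, 9.93, 12.22, 11.23 and 11.55 in MET1 to MET5, and 10.57, 11.99, 9.69, 11.32, 10.74, 11.39, 11.46 and 11.02 in NM1 to NM8. MET3, NM2 and MET5 led, as they did for ACTA2, while NM3, MET1 and MET2 were lowest. The difference was −0.05 ± 0.42 (SE), with a 95% interval from −0.96 to 0.86 (limma, adjusted p = 0.949), and −0.18 within class A. The 3 TAGLN probe sets followed each other over the tumours, with r from 0.96 to 0.99.

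CNN1, basic calponin, was 7.97, 7.71, 8.04, 8.21 and 8.15 in MET1 to MET5, and 7.38, 7.98, 7.23, 7.45, 8.19, 8.28, 8.27 and 7.84 in NM1 to NM8. Its whole range was 1.05, and the 3 tumours without spike-ins were the lowest. The difference was 0.19 ± 0.20 (SE; limma, adjusted p = 0.573) and turned to −0.13 within class A (limma, adjusted p = 0.636). Its second probe set had no such order (r = −0.07 with the first). That set was above 7.16 in NM1 and MET3 only, and elsewhere was not told apart from the no-target range, so the CNN1 pattern rests on a single set.

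CALD1, caldesmon, which non-muscle cells also express, was among the brighter probe sets, at 11.78, 10, 12.49, 12.16 and 12.13 in MET1 to MET5 and 12.57, 12.60, 12.83, 12.38, 12.29, 12.51, 11.55 and 11.81 in NM1 to NM8. MET2 was far below the rest. The difference was −0.61 ± 0.36 (SE), with a 95% interval from −1.37 to 0.16 (limma, adjusted p = 0.305), and it was −0.18 without MET2 (limma, adjusted p = 0.678) and −0.33 within class A (limma, adjusted p = 0.74). The next 2 CALD1 sets followed the first (r = 0.95 and 0.86). The fourth did not (r = 0.26) and had the opposite sign. It was 8.03, 7.34, 9.25, 9.02 and 8.71 in MET1 to MET5 and 8.45, 7.85, 7.30, 6.79, 8.15, 8.01, 7.67 and 7.18 in NM1 to NM8, a difference of 0.80 ± 0.33 (SE; unadjusted p = 0.032, adjusted p = 0.173, limma). Which CALD1 transcripts each set reads is not given in the sources used here.

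SMTN, smoothelin, lay within 1.17 over all tumours, at 9.17, 9.24, 8.75, 8.98 and 9.15 in MET1 to MET5 and 9.31, 9.92, 9.01, 8.91, 9.41, 9.07, 9.40 and 9.24 in NM1 to NM8. NM2 was the highest and MET3, which led ACTA2 and TAGLN, was the lowest. The difference was −0.23 ± 0.16 (SE), with a 95% interval from −0.57 to 0.12 (limma, adjusted p = 0.401), and it was −0.22 within class A. The other 2 SMTN sets gave another order below NM2, which led all 3. In the second set MET3 was 8.42, with NM4 lowest at 8.25, and in the third set MET3 was next to the top at 7.43, with a group difference of 0.25 ± 0.13 (SE; limma, adjusted p = 0.263). The first and the second set had r = 0.82 over the 13 tumours and 0.37 within class A, and the first and the third had r = 0.21 and −0.74. MET3 was thus lowest in the first set, below the median of 8.59 in the second and near the top in the third, so its low SMTN does not hold at every set.

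DES, desmin, was 8.23, 8.39, 8.39, 8.31 and 10.11 in MET1 to MET5, and 8.14, 8.26, 8.40, 8.46, 8.33, 8.53, 8.89 and 8.38 in NM1 to NM8. MET5 was above every other tumour, and the other 12 lay within 8.14 to 8.89. The second DES set gave 9.15 in MET5 and 7.44 or less elsewhere. There NM3 (7.36), NM4 (7.39) and NM7 (7.44) were also at least 1 above the median of 5.95, and above 7.16. The group difference at that set was −0.14 (limma, adjusted p = 0.891). At the first set the difference was 0.26 ± 0.27 (SE), with an adjusted p of 0.566 (limma). It became −0.09 without MET5 (limma, adjusted p = 0.715) and 0.15 within class A (limma, adjusted p = 0.856).

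Desmin is a protein of skeletal muscle as well. Some markers of that tissue were high in the same tumour. Of the 22 measured markers of skeletal and cardiac muscle, 11 were highest in MET5. Against the median of the other 12 tumours, 12 were at least 1 above and 6 at least 3 above. The rest were less than 1 above it, among them TTN (8.28 against 8.135), MB (7.84 against 7.3) and ACTN2 (7.29 against 7.38). Embryonic myosin MYH3 was 10.40 in MET5 and 4.49 or less elsewhere. Slow troponin TNNT1 was 10.51 in MET5 against 7.67 or less, and the fast light chain MYLPF was 10.25 against 6.56 or less. MYOD1 and MYOG, transcription factors of the skeletal muscle lineage, were 5.95 and 7.93 in MET5, near the medians of the other tumours, 5.94 and 7.72. MYOD1 was below 7.16 in every tumour, so its level was not told apart from the no-target range. The mean of the list was 8.64 in MET5, 6.60 to 6.96 in the other metastatic tumours and 6.33 to 7.17 in the non-metastatic ones. The part of skeletal muscle transcripts in the DES level of MET5 was not tested. Skeletal alpha-actin, ACTA1, is close to ACTA2 in sequence. At its chosen set it was highest in MET3 (11.44), MET5 (11.30) and NM2 (10.25), the same 3 tumours as ACTA2. Another ACTA1 set reached 11.63 in the metastatic group, with 1 metastatic and 1 non-metastatic tumour above 7.16. A further set ran from 7.86 to 10.39 in the metastatic tumours and from 7.3 to 8.02 in the non-metastatic ones. The shared order was thus not shown at every ACTA1 set. Whether the probe sets of ACTA1 and ACTA2 read each other's transcripts was not tested. Enteric gamma-actin, ACTG2, was highest in NM2 (11) and MET3 (10.98).

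The 2 pericyte markers ordered the tumours in another way. RGS5 was 6.39, 7.10, 8.26, 6.99 and 7.75 in MET1 to MET5, and 7.49, 7.88, 7.61, 7.54, 7.01, 8.61, 8.34 and 8.32 in NM1 to NM8. NM6, NM7, NM8 and MET3 were highest and MET1 was lowest. MET1, MET2, MET4 and NM5 were at or below 7.16, so RGS5 was not told apart from the no-target range in those tumours. The difference was −0.55 ± 0.32 (SE), with a 95% interval from −1.23 to 0.13 (limma, adjusted p = 0.298), and −0.77 within class A (limma, adjusted p = 0.348). The second RGS5 set was below 7.16 in every tumour, highest in MET3 (7.11) and lowest in NM5 (5.91). The third was above 7.16 only in NM6 (7.22) and NM7 (7.34). The order of RGS5 levels above the no-target range thus rests largely on the first set. CSPG4 was 6.08 to 6.54 in the metastatic tumours, with a median of 6.28, and 6.19 to 7.02 in the non-metastatic ones, with a median of 6.56. Every CSPG4 value was below 7.16, so its level was not told apart from the no-target range and its difference of −0.20 ± 0.15 (SE; limma, adjusted p = 0.411), which was −0.04 within class A (limma, adjusted p = 0.892), describes the signal of that probe set only.

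Over all members, 0 of 25 probe sets and 0 of 10 genes differed between the groups after adjustment (limma). The background was 4.9% of all probe sets and 5.35% of all genes. At an unadjusted p under 0.05, 1 of 10 genes passed (MYLK), against 23.9% of all genes, and 3 of 25 sets, 12%, against 23.7% of all probe sets: both MYLK sets and the fourth CALD1 set, all higher in metastatic tumours. Within class A, 0 of 25 sets and 0 of 10 genes passed after adjustment (limma), against 2.78% of all probe sets and 2.82% of all genes, and 0 passed unadjusted, against 20.2% of each. The values of the groups did not separate for any of the 25 sets, whereas 2.63% of all probe sets had groups that did not overlap. The median difference of the 25 sets was −0.14, and that of all probe sets was 0.05. At the chosen sets, the intervals leave differences of more than 1 in either direction possible for MYH11, above 1 for ACTA2 and MYLK, and more than 1 below for CALD1 and RGS5.

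**Figure D3:**
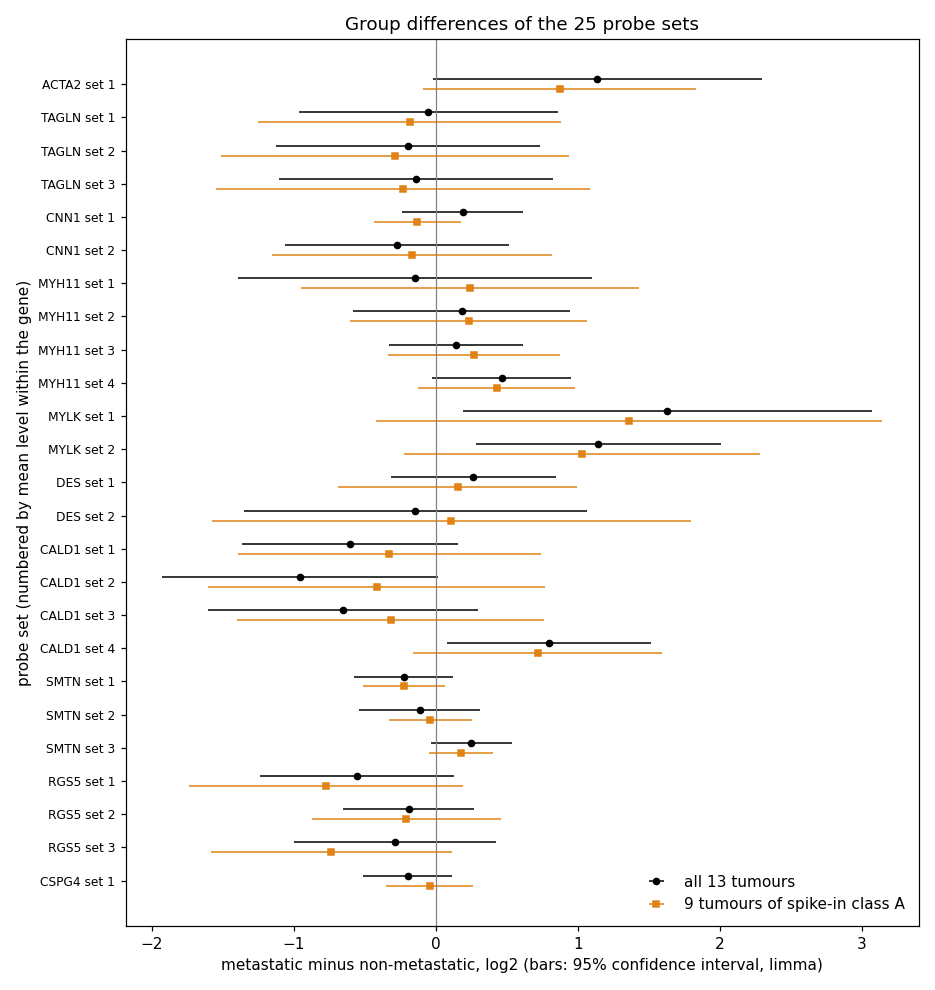
Metastatic minus non-metastatic difference in log2 units, with 95% intervals, for the 25 probe sets of the contractile markers in all 13 tumours and in the 9 tumours of spike-in class A. The intervals of both MYLK sets and of the fourth CALD1 set lie above 0 in all tumours, and 0 of the 25 pass after adjustment.

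Within the non-metastatic group, levels were also set side by side by spike-in class. ACTA2 was 10.40 to 11.34 in NM5 to NM8 and 8.95 to 9.93 in the 3 tumours without spike-ins, CNN1 was 7.84 to 8.28 against 7.23 to 7.45, and MYLK was 6.62 to 7.63 against 5.49 to 6.50. These were the 3 of 10 markers whose values did not overlap, while 36% of all genes did not overlap in the same split. Over probe sets it was 5 of 25, against 34.7% of all probe sets. Both shares are below that background, so the split is no result about the markers; the part of the class in these levels was not tested.

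Among the 45 pairs of markers, 33 had a positive Pearson correlation over the 13 tumours, with a median r of 0.17. The closest pair was ACTA2 and MYLK, with r = 0.74 (permutation p = 0.00366, adjusted over the 45 pairs 0.118) and rho = 0.88 (permutation p = 0.0002, adjusted 0.009). It was the only pair to pass by rank, and 0 pairs passed by Pearson r. Without MET3 and NM2, r was 0.70, and within class A it was 0.52 (exact permutation p = 0.153, adjusted 0.504), so this relation did not pass within the class. MYLK was at or below 7.16 in MET1, NM1, NM3, NM4, NM7 and NM8, so its order among those was one of signals not told apart from the no-target range. ACTA2 and TAGLN had r = 0.70 (permutation p = 0.00746, adjusted 0.118), 0.48 without MET3 and NM2 and 0.62 within class A. MYH11 and SMTN had r = 0.46, which turned to −0.34 without MET5 and NM2, so that relation rested on those tumours.

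**Figure D4:**
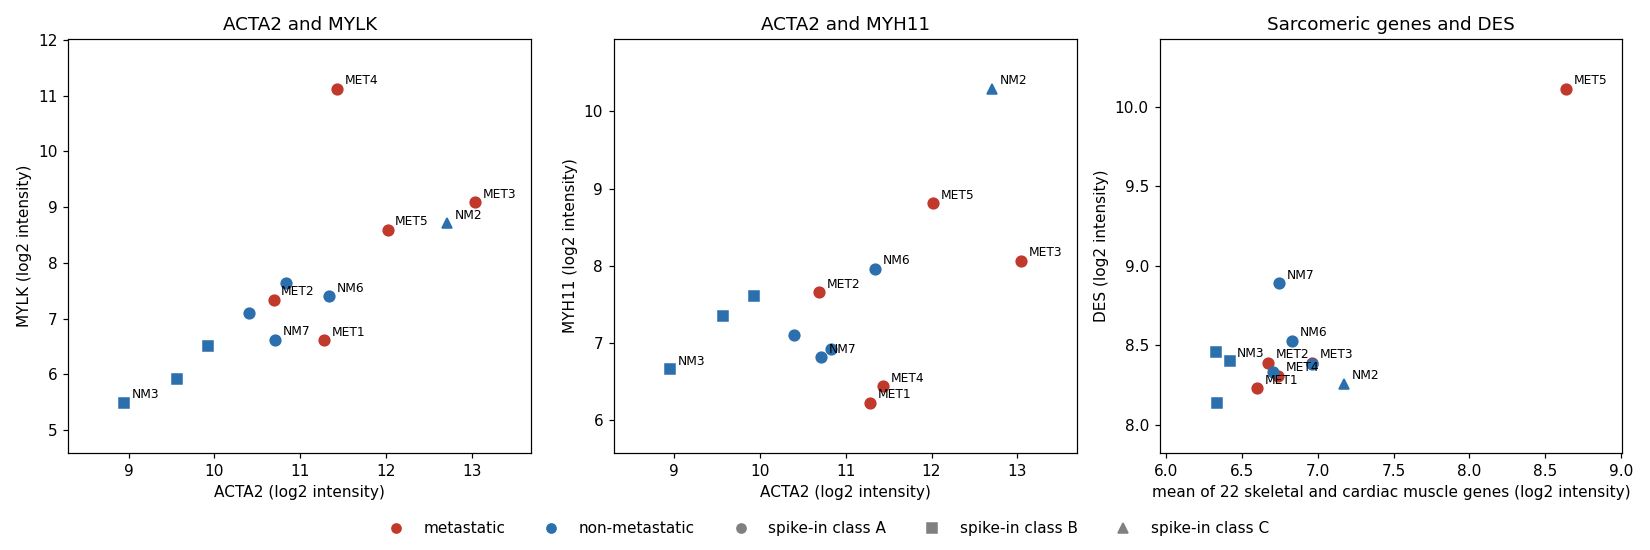
ACTA2 against MYLK, ACTA2 against MYH11, and the mean of 22 skeletal and cardiac muscle genes against DES, each point a tumour and both axes in log2 intensity, with metastatic and non-metastatic tumours and spike-in classes marked. MET4 lies off the ACTA2 and MYLK relation through its high MYLK, and NM2 is alone at the top of MYH11, and MET5 is highest in both DES and the muscle genes.

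Mural cells lie on vessels, and the markers were set against 14 endothelial genes (and 19 pericyte genes), a comparison added after the values had been seen. The mean level of the 14 endothelial genes was 9.13 in NM2, 8.62 in MET3 and 8.59 in MET5, the 3 tumours that led ACTA2 and MYH11. In NM6 the mean was 8.535, close to MET5. It ran from 7.92 to 8.62 in the metastatic group and from 7.45 to 9.13 in the non-metastatic group, with no gene of the list below 7.16 in every tumour. Of the 14 genes, 14 lay above their own median in MET3 and NM6, and 12 in NM2 and MET5. PECAM1 was 11.42 in NM2 and 10.04 in MET3, but 9.90 in NM8 and 9.88 in NM6 against 9.84 in MET5. VWF was 11.33, 9.58 and 9.62 in NM2, MET3 and MET5. Other genes of the list had another order: TEK was highest in NM6 (8.79), with 7.71 in MET5, and EMCN was highest in NM7 (10.30). Over the 13 tumours ACTA2 followed the list with r = 0.83 (permutation p = 0.00042, adjusted over 20 relations 0.0084) and rho = 0.80 (permutation p = 0.00142, adjusted 0.0172), with r = 0.76 without MET3 and NM2. Within class A the ACTA2 relation was r = 0.54 and did not pass (exact permutation, adjusted p = 0.405). MYH11 followed it with r = 0.75 (permutation p = 0.00278, adjusted 0.0278) and rho = 0.71 (permutation p = 0.00777, adjusted 0.0432). Without MET5 and NM2, r was 0.44. Within class A, where NM2 is absent, MYH11 and the list had r = 0.88 (exact permutation, adjusted p = 0.0606) and rho = 0.95 (exact permutation p = 0.000353, adjusted 0.00706). In this class MYH11 was at or below 7.16 in MET1, MET4, NM5, NM7 and NM8. The rank relation thus draws in part on the order of signals not told apart from the no-target range. Of the 20 relations, 2 passed by Pearson r and 4 by rank over all tumours, all with the endothelial list, the others being TAGLN (rho = 0.71, permutation, adjusted p = 0.0432) and MYLK (rho = 0.80, permutation, adjusted p = 0.0172). Within class A, 0 passed by Pearson r and 1 by rank. The part of vessel content in the contractile levels was not tested.

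Of 19 other pericyte markers measured, 0 passed in either direction (limma), against 1.65% of all genes higher and 3.7% lower, with a median difference of 0.23 where that of all genes was 0.05. The list was highest in MET3 (8.66) and NM2 (8.33). Single genes led in single tumours: the platelet-derived growth factor receptor PDGFRB was 11.48 in MET1, the potassium channel subunits ABCC9 and KCNJ8 were 8.37 and 8.75 in MET2, the regulator RGS4 was 8.62 in MET3 and 5.81 or less elsewhere, and the adhesion molecule MCAM was 10.35 in MET3 and 10.19 in NM2. Other genes of the list led in non-metastatic tumours, among them ENPEP (10.52 in NM1), ANPEP (10.89 in NM4) and EDNRA (10.55 in NM7). The transmembrane protein CD248, highest in NM3 (11.73), had the smallest p, with a difference of −1.22 (limma, adjusted p = 0.0607).

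The counts of the lists that follow are read against the same 1.65% and 3.7%. Of 27 measured partners of the contractile apparatus, 1 was higher in metastatic tumours, 0 were lower, and the median difference was 0.22. The 1 was ACTN1, the alpha-actinin that crosslinks actin and anchors it at adhesion sites. It was 8.72, 8.74, 8.89, 8.98 and 8.80 in MET1 to MET5, and 7.53, 8.85, 7.18, 7.05, 8.08, 8.16, 8.03 and 7.64 in NM1 to NM8, where only NM2 reached the metastatic range. The difference was 1.01 ± 0.25 (SE; limma, adjusted p = 0.0358), and 0.85 within class A (limma, adjusted p = 0.0125). The call was lost in 9 of the 13 fits that leave out 1 tumour, and without class B. The next by p were the LIM protein CSRP1 at −0.75 (limma, adjusted p = 0.0796), the myosin phosphatase subunit PPP1R12B at 0.51 and the calcium channel CACNA1C at 0.38, none of which passed.

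Among the regulators of these genes, KLF4 was lower and FHL2 higher in metastatic tumours. Serum response factor (SRF) and its coactivator myocardin (MYOCD) switch on the contractile genes, and KLF4 is a repressor of that program in vascular smooth muscle. KLF4 was 7.35, 8.34, 10.46, 9.96 and 9.39 in MET1 to MET5, and 11.94, 11.71, 12.03, 12.17, 11.76, 12.26, 12.19 and 11.91 in NM1 to NM8. The groups did not overlap, and MET1 and MET2 were lowest. The means were 9.10 ± 1.26 (SD, n = 5) and 11.996 ± 0.20 (SD, n = 8), a difference of −2.90 ± 0.40 (SE; limma, adjusted p = 0.0028), and it was −2.93 within class A (limma, adjusted p = 0.0314). Another KLF4 probe set differed by −0.42 (limma, adjusted p = 0.0805), with 1 tumour above 7.16.

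FHL2, a LIM-domain cofactor that binds SRF, was 9.22, 8.96, 8.62, 9.06 and 8.41 in MET1 to MET5, and 7.11, 7.60, 7.14, 7.01, 7.95, 7.90, 7.80 and 7.63 in NM1 to NM8. These groups did not overlap either. The difference was 1.34 ± 0.20 (SE; limma, adjusted p = 0.00363), and 1.03 within class A (limma, adjusted p = 0.0184). At its other probe set the metastatic tumours were at 8.72 to 9.82 and the non-metastatic ones at 4.08 to 7.46, with 2 of 8 above 7.16. The difference there, 3.74 (limma, adjusted p = 0.00311), is therefore largely against signal in the no-target range. At the first set, NM1, NM3 and NM4 were below 7.16 too. KLF4 and FHL2 were the 2 of 20 measured regulators to pass at the chosen sets, and both passed under all 23 alternative settings. JAG1, a ligand of Notch receptors, differed by 0.32 at its chosen set (limma, adjusted p = 0.223), and by −1.80 at another set (limma, adjusted p = 0.027; class A adjusted p = 0.0191), where no metastatic tumour and 5 of 8 non-metastatic ones were above 7.16. The JAG1 sets thus disagree in sign. CSRP2, a LIM protein of smooth muscle, differed by 1.39 without passing (limma, adjusted p = 0.0893). SRF was 7.88 to 9.21 in the metastatic and 7.87 to 9.31 in the non-metastatic tumours. MYOCD was 6.97 to 7.27 and 6.41 to 7.62, with only NM2, MET3, NM6 and MET5 above 7.16.

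**Figure D5:**
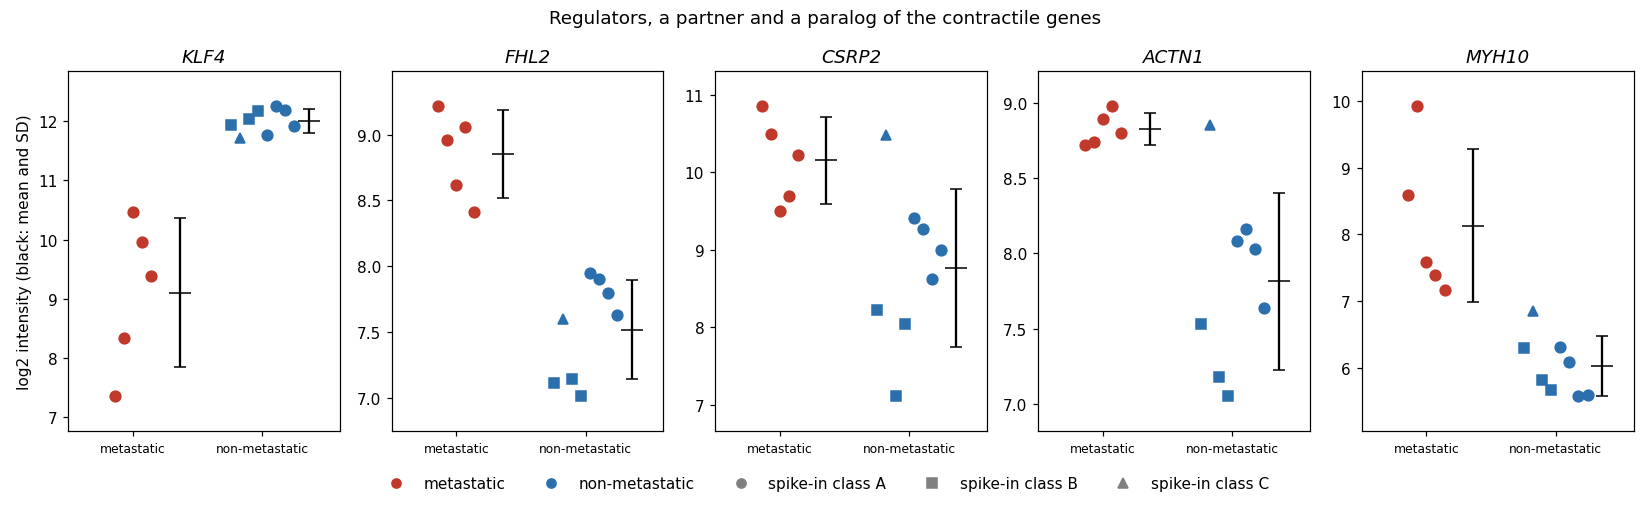
Log2 intensity of the regulators KLF4, FHL2 and CSRP2, the partner ACTN1 and the non-muscle paralog MYH10 in every tumour, by group and spike-in class, with the group mean and SD in black; each panel has its own scale. KLF4 lies at 7.35 to 10.46 in the metastatic tumours and 11.71 to 12.26 in the non-metastatic ones, and the groups overlap for CSRP2 and ACTN1 through NM2.

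Non-muscle relatives of the markers separated from them in 1 case. MYH10, a myosin heavy chain of non-muscle cells, was 8.59, 9.93, 7.58, 7.39 and 7.16 in MET1 to MET5, and 6.29, 6.85, 5.81, 5.66, 6.31, 6.09, 5.57 and 5.59 in NM1 to NM8. MET2 was highest, all 8 non-metastatic tumours were below 7.16, MET5 was at it, and the groups did not overlap. The difference was 2.11 ± 0.40 (SE; limma, adjusted p = 0.0117), and 2.24 within class A (limma, adjusted p = 0.0597). At the other MYH10 set it was 3.11 (limma, adjusted p = 0.00201), where 2 metastatic tumours and 0 of 8 non-metastatic ones were above 7.16. Of the 15 paralogs measured, 1 was higher, 0 were lower, and the median difference was 0.01.

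Markers of other cells in the tumours gave these counts. Of 12 fibroblast and myofibroblast markers, 3 were lower in metastatic tumours: the proteoglycan decorin (DCN), with a difference of −1.29 (limma, adjusted p = 0.00429), the surface protease FAP, with −1.58 (limma, adjusted p = 0.0421), and the glycoprotein THY1, with −1.41 (limma, adjusted p = 0.0425). The FAP and THY1 calls were each lost in 10 of 13 fits that leave out 1 tumour, within class A, without class B and after quantile normalization. Of 14 endothelial, 22 skeletal and cardiac, 9 Schwann cell and 7 epithelial markers, 0 passed in either direction (limma).

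By Pearson r over the 13 tumours, each gene at its highest probe set, the 3 genes most like each marker were as follows out of 15114 others. The levels closest to ACTA2 were those of ART4, ACTG2 and GPA33 (r = 0.93 for each). For TAGLN they were IGFBP5 (0.92), SMCP (0.87) and TSPAN8 (0.86). For MYH11 they were ACE, NEBL and MAP3K7CL (0.91 each), and for MYLK TSPAN15 (0.95), SLC1A5 and PDE4B (0.93 each). These are the highest of 15114 correlations a marker over few tumours and carry no test. DES was closest to NXT1 (0.94), MYL1 (0.92) and TNNT1 (0.90), which dropped to 0.0037, 0.58 and 0.64 without MET5 and NM7. CNN1 was closest to LOC476356 (0.94), CEBPE and KLC4 (0.93 each), and CALD1 to CHMP3, DAZAP2 (0.91 each) and FUNDC2 (0.88), which became 0.53, 0.74 and 0.10 without MET2 and NM7. For the other 8 markers the values without the 2 farthest tumours lay between 0.62 and 0.94. SMTN was closest to SPATC1L, WWP2 (0.91 each) and SPAG17 (0.90), RGS5 to C1QTNF7 (0.81), KIF24 (0.80) and TM4SF1 (0.79), and CSPG4 to STX4 (0.88), FABP12 and CMBL (0.86 each). ART4, SMCP, TSPAN8, MAP3K7CL, SPATC1L and FABP12 were below 7.16 in every tumour, so their levels were not told apart from the no-target range.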

How the data were processed

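Total RNA of 13 primary tumours was labelled with biotin by 3′ in vitro transcription, per the labels' protocols. The authors deposited 1 table of processed log2 intensities for all arrays. The log2 scale was read from the values, which run from 0 to 14.33. Software and normalization: not given in the sources used here. Of 43035 probe sets, 111 controls were left out and 42924 tested. The platform annotation gave 1 symbol for 29254, several for 439 and none for 13231. The 25 member sets' gene identifiers were all found in RefSeq (UU_Cfam_GSD_1.0), and 0 symbols changed. No coordinates or sequences are given.

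Groups follow the labels, and every difference is the metastatic mean less the non-metastatic mean. The model was limma's (version 3.58.1 in R 4.3.3; linear fit with empirical Bayes) with group alone, two-sided, Benjamini-Hochberg over all tested sets, threshold 0.05. Spike-in classes used a 3′ control mean of 6 and a 3′ minus 5′ limit of 2; they are read from the controls and are no labelled batch. Correlations used two-sided permutations (100000 resamples, or all 362880 orders within class A; Python 3.11.15, numpy 2.4.6, scipy 1.17.1). On simulated data with 42924 probe sets, the fit recovered 67% of sets changed by 1 and 90% of sets changed by 2. The changed sets were drawn at random, with normal noise of each set's own spread and no spike-in classes. These shares do not carry over to ACTA2, MYH11 and MYLK, whose standard deviations were higher than those of 96.94%, 96.28% and 98.81% of all probe sets. The number of arrays limits the precision.

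The named genes are all members, up to 4 genes of smallest p in each list, genes needed to name counts of 5 or fewer, and the 3 genes most like each member; others singled out (as in MET5 or among regulators, endothelial and pericyte genes) were chosen after their values were seen. The members and lists were chosen with earlier results of these data known.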

Additional observations from a re-analysis of the deposited data

Results flagged for a closer look

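In 68 groups of values (member probe sets and list means, by group), 11 had a highest or lowest tumour far from the rest by Dixon's criterion, where chance gives about 1 in 20. In NM2 these were MYH11 (10.29, next 7.96), the second SMTN set (9.65, next 8.72), the mean of the pericyte list (8.33) and the mean of the epithelial list (6.25). NM2 is also the tumour whose spike-ins and ACTB had the largest 3′ minus 5′ differences, and the part of this in its values was not tested. In MET5 they were both DES sets (10.11, next 8.39, and 9.15, next 5.95) and the mean of the skeletal and cardiac list (8.64). In MET2 they were CALD1 at its first set (10, next 11.78) and at its second (8.46, next 10.49). The second RGS5 set was low in NM5, at 5.91, and the mean of the Schwann cell list was high in NM7, at 7.92, with CDH19 at 8.80 there and 5.77 or less elsewhere.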

How the results depend on the processing

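Under the 23 alternative settings, 0 member probe sets and 0 member genes passed (limma), with a lowest adjusted p of 0.0545, for ACTA2 without NM2. The count over all probe sets, 2104, was 856 to 4478 when 1 tumour was left out, 1192 within spike-in class A, 207 without class B (NM1, NM3, NM4), 1367 with ACTB's 3′ minus 5′ difference in the model and 733 with the replicate number as a block. Replicate numbers share only a number here: the correlations of same-numbered tumours' deviations were 0.065, 0.078, 0.022, 0.038 and −0.0086. ACTA2, MYLK, CALD1, SMTN, RGS5 and CSPG4 kept their sign in every alternative run, but not their size: without class B, ACTA2 was 0.49 and MYLK 1.06; SMTN was −0.029 as the mean of its sets and −0.094 after quantile normalization; RGS5 was −0.21 with the block; CSPG4 was −0.04 within class A and −0.34 with the block. The TAGLN difference turned to 0.12 after quantile normalization and 0.11 with the block, and ran from −0.37 to 0.21 without 1 tumour. The CNN1 difference turned to −0.13 within class A and with class as a block, −0.10 without class B and −0.042 as the mean of its sets. The MYH11 difference turned to 0.24 within class A and with class as a block and 0.16 as the mean of its sets, and ran from −0.49 to 0.24 without 1 tumour. The DES difference ran from −0.094 (without MET5) to 0.38. A filter at the median level kept 16 of 25 member sets and dropped CSPG4. The cause of these changes was not tested. Without 1 tumour, ACTA2 ran from 0.80 to 1.44, MYLK from 0.99 to 2.12, CNN1 from 0.10 to 0.27, CALD1 from −0.80 to −0.18, SMTN from −0.28 to −0.13, RGS5 from −0.79 to −0.33 and CSPG4 from −0.25 to −0.13. Without class B, ACTN1, DCN, FAP, THY1 and MYH10 lost their calls; ACTN1, FAP and THY1 also lost theirs with the block, FAP and THY1 after quantile normalization and with ACTB's difference in the model, FAP, THY1 and MYH10 within class A, and FAP and THY1 with class as a block.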
